A study of Homo sapiens with 9 samples.

Results

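The difference between 72 h and 48 h of exposure to transforming growth factor beta 1 (TGF-β1) was examined in UPCI-SCC-040, an established line of oral squamous cell carcinoma from tongue tissue. The members were the libraries that the sample titles place at those times, 6 of the 9 in the series, and the remaining 3 were untreated controls. Both groups received 5 ng/ml TGF-β1 in medium without serum, penicillin or streptomycin, after growth in medium with 10% serum. At each time there was 1 library from passage 12, 1 from passage 13 and 1 from passage 8, which are replicates 1, 2 and 3, and each passage served as a pair. The labels do not say which medium the control cells had during treatment or when they were harvested, so control levels are given as values and did not enter the main test. The comparison asks what differed in the last 24 h of exposure, in 1 cell line. The p-values therefore rest on how the difference between the times varied from passage to passage of that line, with variance estimates that borrow from other genes. In bulk RNA, fewer cells of a kind and less RNA per cell cannot be told apart.

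TGF-β1 binds a complex of type I and type II receptor kinases, which phosphorylate SMAD2 and SMAD3, and these enter the nucleus with SMAD4. In epithelial cells the pathway is known for arresting the cell cycle, for inducing matrix genes and for promoting epithelial-mesenchymal transition. NRF2 is the transcription factor that induces enzymes of detoxification, glutathione and NADPH supply. Interferon-stimulated genes are antiviral genes driven by STAT proteins and interferon regulatory factors, and the integrated stress response raises amino acid synthesis and transport genes through ATF4.

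The 6 libraries held 12544690 to 20438727 counts. All 10 squamous epithelial markers were expressed highly enough to be tested, as were 2 of 9 fibroblast markers (FAP and COL1A2), none of 7 endothelial markers and 1 of 9 leukocyte markers (CSF1R). One library stood apart, that of 72 h in passage 8. It held 1.54% of its counts in the nuclear noncoding RNA MALAT1 against 0.409% to 0.507% in the other 5. Cytosolic ribosomal protein genes took 1.04% of its counts against 1.60% to 2.09%, and mitochondrial transcripts 0.167% against 0.131% to 0.160%. On the first principal component, which carried 51.0% of the variance, it lay at 70.3 and the others between -38.6 and 21.5. On the second component, with 21.4%, the 72 h library lay below its 48 h partner in each passage.

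No gene passed an adjusted p of 0.05 (edgeR quasi-likelihood test with passage as a block, Benjamini-Hochberg adjustment over 14887 genes, 0% called). The smallest adjusted p was 0.0885, for NPNT. Without adjustment, 1250 genes had a p under 0.05, 8.4% of those tested, where 744 would be expected by chance. Of these, 751 (5.04%) were higher and 499 (3.35%) were lower at 72 h. This excess of higher genes was lost without passage 12 (878 higher, 907 lower) and without passage 8 (471 higher, 485 lower). DESeq2's Wald test with the same block passed 59 genes, 37 higher and 22 lower, so the count of 0 depended on the test. The sign was the same in all 3 passages for more genes, higher at 72 h for 2644 (17.8%) and lower for 2146 (14.4%). Random signs would agree over 3 pairs with probability 0.25, both directions together, so much of this agreement can arise by chance. At least a 2-fold difference in every passage was seen in 18 higher genes (0.121%) and 16 lower genes (0.107%). The 3 libraries of 72 h all lay above the 3 of 48 h for 988 genes (6.64%) and all below for 822 (5.52%). Random values of 3 against 3 would separate with probability 0.10, both directions together, so these counts are near chance.

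The paired difference, log2 CPM at 72 h minus log2 CPM at 48 h, had an SD over genes of 0.47 in passage 12, 0.50 in passage 13 and 0.69 in passage 8. At least 2-fold differences were found in 296 higher and 407 lower genes in passage 12, in 385 and 468 in passage 13, and in 999 and 799 in passage 8. Across genes, which are not independent replicates, the paired differences of passages 12 and 13 correlated at r = 0.06, those of passages 12 and 8 at 0.03 and those of passages 13 and 8 at 0.31. Some gene groups had differences of 1 sign in every passage and others had opposite signs. Higher and lower describe these 6 libraries, since no gene passed the test.

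**Figure D1:**
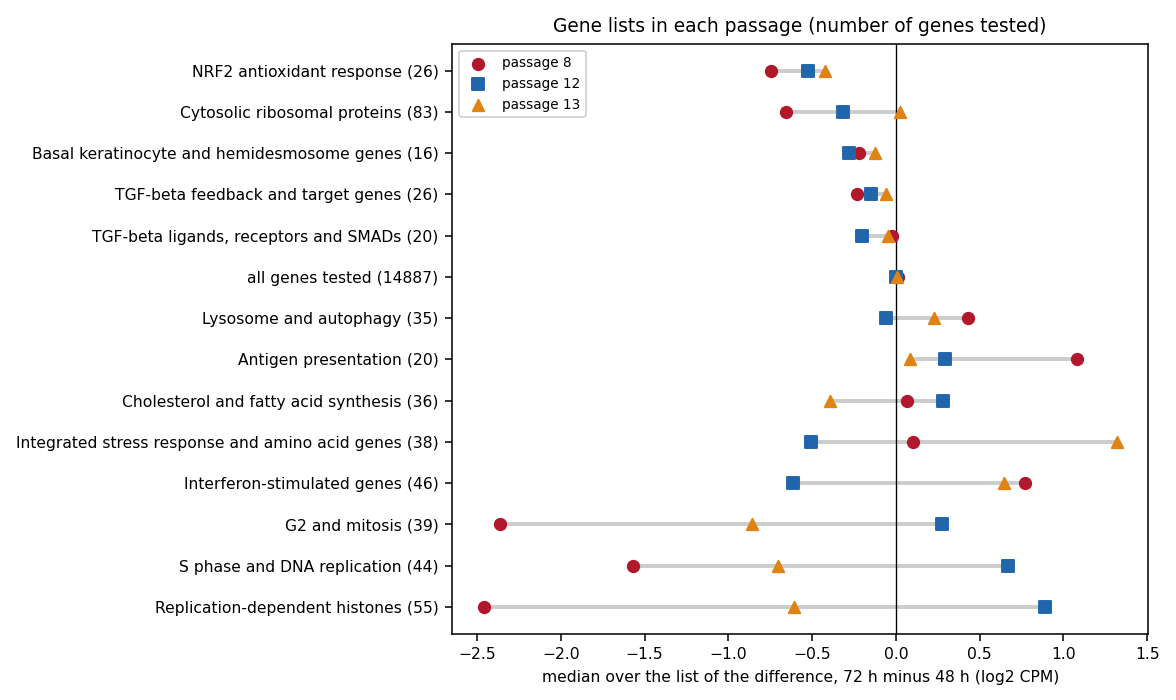
Median paired difference in log2 CPM (72 h minus 48 h, horizontal axis) over the tested members of 13 gene lists and over all 14887 genes, with 1 point per passage and a grey bar from the lowest to the highest passage. NRF2 genes lay below 0 in every passage (-0.52, -0.42 and -0.75 in passages 12, 13 and 8) and antigen presentation genes above 0, while histone, S phase, interferon-stimulated and integrated stress response genes lay on both sides.

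NPNT encodes nephronectin, an extracellular matrix ligand of integrin α8β1 (identifier ENSG00000168743, chr4:105894775-106004027, plus strand, GRCh38). Its level was 26.4, 16.4 and 35.3 CPM at 48 h in passages 12, 13 and 8, and 8.49, 4.20 and 8.99 CPM at 72 h. The groups did not overlap, and the log2 fold change was -1.85 ± 0.18 (SE, adjusted p = 0.0885, edgeR). Controls stood at 35.7, 11.2 and 23.6 CPM. The genes from NPNT to ICAM1 in this part were named because their paired difference had the same sign in every passage. That shared sign follows from the choice and is not a result.

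MXRA5, a matrix remodelling-associated protein, had 55.5, 32.6 and 33.3 CPM at 48 h and 26.6, 13.5 and 13.4 CPM at 72 h (-1.21 ± 0.16, adjusted p = 0.224, edgeR). TP53AIP1, a p53-regulated apoptosis protein, had 32.9, 22.4 and 27.4 CPM and then 14.9, 9.19 and 9.05 CPM (-1.34 ± 0.18). Each gene was lower at 72 h in all 3 passages with no overlap. So were TRIML2, with 14.2, 15.3 and 12.0 CPM and then 7.93, 4.65 and 2.78 CPM, and the phospholipase gene PLCG2, with 17.6, 14.6 and 20.2 CPM and then 9.82, 7.28 and 9.17 CPM. The chemokine gene CXCL14 differed widely between passages, with 45.8, 8.27 and 66.8 CPM at 48 h and 11.9, 1.51 and 37.5 CPM at 72 h. It was lower at 72 h in each passage although the groups overlapped. In controls CXCL14 stood at 5.67, 0.525 and 3.66 CPM.

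Among genes higher at 72 h, TIMP1, which encodes a secreted inhibitor of matrix metalloproteinases, had 17.4, 34.1 and 18.0 CPM at 48 h and 43.3, 65.8 and 52.5 CPM at 72 h. The groups did not overlap, and the log2 fold change was 1.27 ± 0.17 (SE, adjusted p = 0.224, edgeR). YIPF2, a membrane protein of the Golgi, had 25.7, 33.7 and 26 CPM and then 60.4, 130 and 55.1 CPM (1.42 ± 0.19). Controls of YIPF2 stood at 23.1, 29.6 and 26.9 CPM, close to its 48 h values. MFAP5, a protein of elastic microfibrils, had 2.23, 2.76 and 1.93 CPM and then 13.0, 7.73 and 4.91 CPM.

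Several of the genes with same-sign paired differences were far more abundant in passage 8 than in the other passages at both times. They lay under 5 CPM in every library of passages 12 and 13. The calpain protease gene CAPN14 had 0.297, 0.240 and 3.21 CPM at 48 h in passages 12, 13 and 8, and 1.94, 0.897 and 13.2 CPM at 72 h. SYT14, a synaptotagmin, had 0.742, 0.180 and 2.89 CPM and then 2.05, 0.841 and 28.5 CPM. The cytidine deaminase gene APOBEC3G had 0.445, 0.359 and 3.45 CPM and then 1.05, 0.897 and 15.3 CPM. FXYD2, which encodes a regulatory subunit of the sodium pump, had 1.63, 0.839 and 9.88 CPM and then 3.38, 2.02 and 40.4 CPM. Each was higher at 72 h within its passage, yet the 48 h library of passage 8 lay above the 72 h libraries of passages 12 and 13 in all 4. The log2 difference was largest in passage 8 for SYT14 (3.25), APOBEC3G (2.11) and FXYD2 (2.02), and in passage 12 for CAPN14 (2.31). ICAM1, an adhesion receptor for leukocyte integrins, had 1.09, 2.28 and 3.61 CPM and then 2.22, 4.93 and 9.34 CPM, 0.95 to 1.34 higher per passage on the log2 scale.

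**Figure D2:**
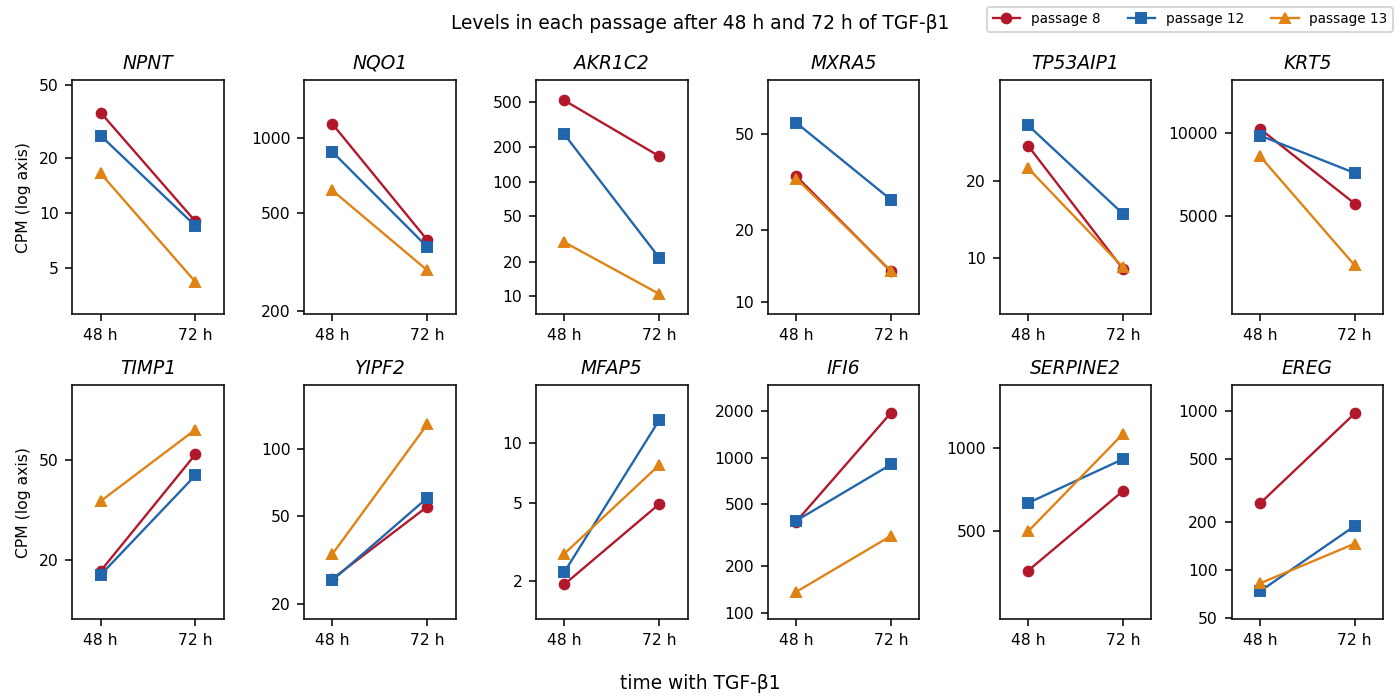
CPM (log axes, a separate range in each panel) after 48 h and 72 h of TGF-β1 for 12 genes, each line joining the 2 libraries of 1 passage. The genes were picked among those with the same sign in every passage, so every line of the upper row runs down and every line of the lower row up. Levels went from 26.4, 16.4 and 35.3 to 8.49, 4.20 and 8.99 CPM for NPNT in passages 12, 13 and 8. For TIMP1 they went from 17.4, 34.1 and 18.0 to 43.3, 65.8 and 52.5 CPM.

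Most members of a list of genes that NRF2 induces, chosen with earlier results of these data known, had lower levels at 72 h. Of the 26 members, all tested, 14 were lower in all 3 passages (53.8%, against 14.4% of all genes) and 1 was higher, HMOX1. The median log2 fold change was -0.60, against -0.0016 over all genes, and 12 members had an unadjusted p under 0.05 in the lower direction and 1 in the higher. The members' median was -0.52 in passage 12, -0.42 in passage 13 and -0.75 in passage 8. Without passage 8, 17 of 26 were lower in both remaining passages (65.4%, against 24.9% of all genes).

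NQO1, a quinone reductase that is a standard readout of NRF2 (chr16:69706996-69726951, minus strand, GRCh38), had 877, 613 and 1136 CPM at 48 h and 363, 293 and 388 CPM at 72 h in passages 12, 13 and 8. All 3 libraries of 72 h lay below all 3 of 48 h (-1.30 ± 0.19, adjusted p = 0.331, edgeR). Controls had 345, 604 and 490 CPM. The aldo-keto reductases, which reduce steroids and reactive aldehydes, were represented by 5 genes, and AKR1B10, AKR1C2 and AKR1C3 had the lowest fold changes of the list. AKR1C2 had 260, 29.7 and 515 CPM at 48 h and 21.7, 10.5 and 168 CPM at 72 h (-2.22 ± 0.52), and its controls stood at 7.15, 5.46 and 7.03 CPM. AKR1C3 had 89.2, 22.8 and 156 CPM and then 19.6, 12.1 and 62.2 CPM. AKR1B10 had 6.87, 0.659 and 17.8 CPM and then 0.610, 0.224 and 5.20 CPM. These 3 were lower in each passage, with passage 13 the lowest at both times. AKR1C1 and AKR1C2 are near-identical copies, so reads may be split between them. AKR1C1 itself did not keep 1 sign, with 230, 68.9 and 567 CPM and then 66.7, 48.8 and 654 CPM. ALDH3A1, an aldehyde dehydrogenase outside the list, had 21.9, 5.39 and 25 CPM and then 6.21, 3.03 and 7.57 CPM.

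Enzymes of the pentose phosphate pathway, which supplies NADPH and ribose, were also lower in each passage. TKT, transketolase, had 615, 334 and 600 CPM at 48 h and 329, 258 and 291 CPM at 72 h (-0.77 ± 0.20, SE, adjusted p = 0.433, edgeR). PGD, phosphogluconate dehydrogenase, had 223, 183 and 379 CPM and then 168, 118 and 197 CPM. TKT did not overlap between the times, whereas PGD did. GCLM, the modifier subunit of the enzyme that limits glutathione synthesis, had 64.7, 72.7 and 89.0 CPM and then 52.3, 47.4 and 30.0 CPM, without overlap. The TKT, PGD and GCLM values, and those of AKR1C1, HMOX1, AKR1B1 and SLC7A11, were chosen for print after they had been seen.

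Other members had the opposite sign or both signs. HMOX1, heme oxygenase, had 3.61, 3.06 and 4.82 CPM at 48 h and 4.83, 4.59 and 9.58 CPM at 72 h. AKR1B1, aldose reductase, had 49.3, 51.6 and 97.0 CPM and then 61.0, 47.1 and 1020 CPM, so its difference lay in passage 8. SLC7A11, the cystine transporter that is a target of both NRF2 and ATF4, had 894, 187 and 796 CPM and then 287, 573 and 242 CPM. It was lower in passages 12 and 8 and higher in passage 13.

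**Figure D3:**
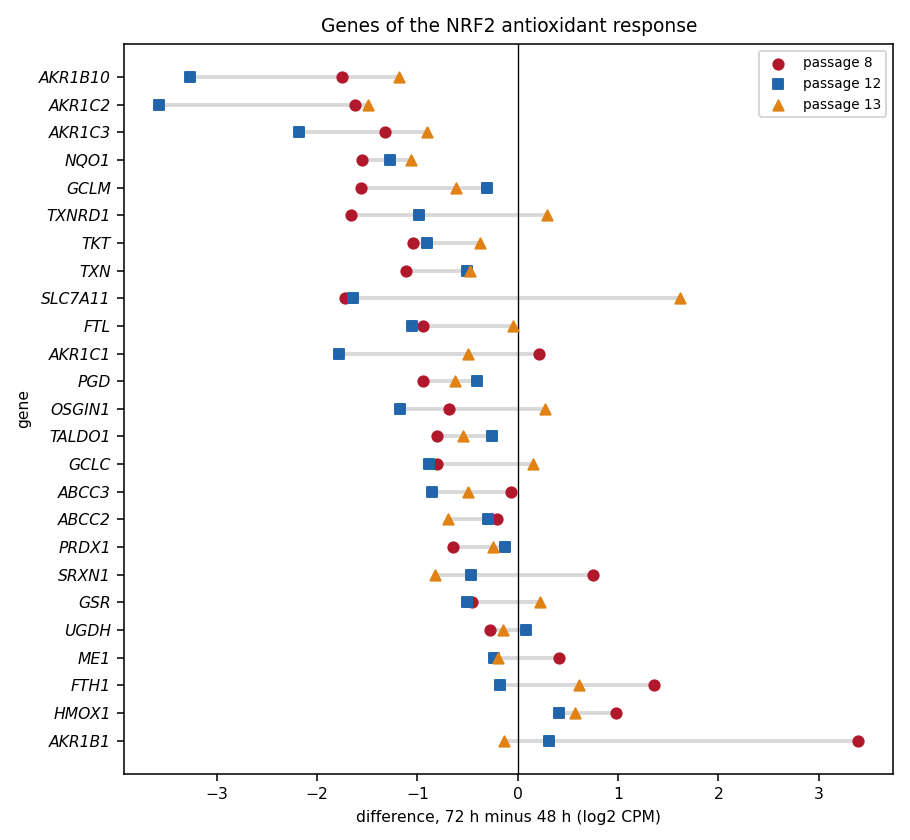
Paired difference in log2 CPM (72 h minus 48 h) for tested genes of the NRF2 list, 1 point per passage, with a grey bar over the range of the passages. AKR1B10, AKR1C2, AKR1C3 and NQO1 lie left of 0 in every passage, HMOX1 lies right of 0 in every passage, and SLC7A11 is split between passage 13 (1.61) and passages 12 and 8 (-1.64 and -1.72).

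NRF2 binds antioxidant response elements, which were searched in the 250 bases before the RefSeq transcript starts (build GRCh38.p14) as TGACNNNGC on both strands. A window was at hand for 19 of the 26 members, and 4 held the motif (21.1%), against 10.9% of 35116 windows of all genes. Members were counted by gene, with a match in any of a gene's windows, and the background by window. A gene can have several windows, so these shares are not measured alike. Of the 11 members with a window that were lower in all 3 passages, 2 held the motif, GCLM and PGD. These 2 windows are shown because they are the lower members with a match, which is in capitals. The strand of each gene is the strand printed.

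GCLM, chr1:93909431-93909680, minus strand: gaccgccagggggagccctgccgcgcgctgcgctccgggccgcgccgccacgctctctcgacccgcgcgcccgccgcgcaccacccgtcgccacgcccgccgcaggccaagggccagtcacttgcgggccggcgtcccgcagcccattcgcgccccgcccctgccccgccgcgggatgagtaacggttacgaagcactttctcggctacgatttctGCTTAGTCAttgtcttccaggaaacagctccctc
PGD, chr1:10398814-10399063, plus strand: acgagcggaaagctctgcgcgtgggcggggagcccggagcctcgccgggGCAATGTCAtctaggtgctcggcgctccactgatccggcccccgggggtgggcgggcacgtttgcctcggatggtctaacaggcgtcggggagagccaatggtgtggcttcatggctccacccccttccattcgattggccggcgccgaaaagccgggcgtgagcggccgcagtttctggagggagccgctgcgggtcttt

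The match began 34 bases before the start in GCLM and 201 bases before it in PGD. A match is a description of the sequence and not evidence of binding, and these windows do not reach distal elements.

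Genes of antigen presentation were higher at 72 h in 10 of 20 tested members and lower in none in all 3 passages (50.0% and 0%, against 17.8% and 14.4% of all genes). They included HLA-B, HLA-C, HLA-E, HLA-F, HLA-G, B2M, TAP2, TAPBP and TAPBPL, which form class I molecules or load peptides onto them. HLA genes are similar in sequence and may share or lose reads. The median difference was 0.29 in passage 12, 0.08 in passage 13 and 1.08 in passage 8, so the size was carried by passage 8, whose 72 h library stands apart. Without passage 8, 11 members were higher and 4 lower in both remaining passages, against 26% and 24.9% of all genes.

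HLA-B had 827, 540 and 820 CPM at 48 h and 1226, 776 and 2268 CPM at 72 h in passages 12, 13 and 8 (0.85 ± 0.25, SE, adjusted p = 0.502, edgeR). The 72 h library of passage 13 lay below the 48 h libraries of the others, so the groups overlapped. HLA-C had 211, 164 and 207 CPM and then 331, 211 and 598 CPM, and B2M, the light chain of class I molecules, had 1509, 1214 and 2005 CPM and then 1994, 1530 and 4015 CPM. B2M was chosen after its values were seen.

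Interferon-stimulated genes did not share 1 direction. Of 46 tested members, 7 were higher in all 3 passages and 3 were lower (15.2% and 6.52%, against 17.8% and 14.4% of all genes). The median was -0.61 in passage 12, where 39 members were lower, and 0.65 and 0.77 in passages 13 and 8, where 38 and 41 were higher. The 7 higher in every passage were IFI6, IFI27, IFI35, IFITM1, IFITM3, BST2 and LGALS3BP, and the 3 lower were IFI44, OASL and DDX58.

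IFI6, a small membrane protein induced by type I interferon, had 392, 136 and 387 CPM at 48 h and 903, 313 and 1943 CPM at 72 h (1.57 ± 0.27, adjusted p = 0.349, edgeR). Its controls stood at 134, 11.4 and 63.1 CPM. Passage 13 was low at each time, and its 72 h value lay under the 48 h values of passages 12 and 8. LGALS3BP, a secreted glycoprotein that binds galectin-3, had 483, 279 and 438 CPM and then 842, 519 and 1319 CPM without overlap (1.09 ± 0.22). IFI27 had 1226, 642 and 871 CPM and then 1904.5, 999 and 2387 CPM. MX1, an antiviral GTPase, showed the opposed pattern of the list, with 727, 104 and 1160 CPM and then 477, 248 and 1984.5 CPM. IFI27 and MX1 were chosen after their values were seen.

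The core of the interferon-stimulated response element was searched on both strands as GAAA, any 2 bases and GAAA. It was found in the 250-base windows of 26 of the 38 members with a window (68.4%), against 3.02% of all windows. Here too members were counted by gene and the background by window. The element was in 6 of the 7 members that were higher in every passage. The list is made of known interferon targets, so this share describes the list and not the time course. Windows of IFI6 and LGALS3BP, higher in every passage, and of MX1, lower in passage 12, are shown with the matches in capitals, since the same element stood before genes with both patterns.

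IFI6, chr1:27672193-27672442, minus strand: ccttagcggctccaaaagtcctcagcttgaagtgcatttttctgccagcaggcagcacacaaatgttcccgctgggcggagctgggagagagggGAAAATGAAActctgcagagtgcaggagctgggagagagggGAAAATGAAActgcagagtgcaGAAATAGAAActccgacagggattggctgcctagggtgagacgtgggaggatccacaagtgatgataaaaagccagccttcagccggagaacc
LGALS3BP, chr17:78979924-78980173, minus strand: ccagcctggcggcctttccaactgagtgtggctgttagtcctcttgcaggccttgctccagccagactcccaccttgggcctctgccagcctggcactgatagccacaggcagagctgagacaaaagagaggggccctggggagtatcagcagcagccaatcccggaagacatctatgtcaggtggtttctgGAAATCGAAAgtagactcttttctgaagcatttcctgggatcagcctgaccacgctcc
MX1, chr21:41431800-41432049, plus strand: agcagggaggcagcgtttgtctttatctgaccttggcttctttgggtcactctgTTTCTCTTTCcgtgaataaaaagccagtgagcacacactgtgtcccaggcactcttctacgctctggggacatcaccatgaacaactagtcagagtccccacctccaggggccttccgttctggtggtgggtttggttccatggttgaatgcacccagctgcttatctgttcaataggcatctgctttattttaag

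IFI6 held 3 matches between 156 and 84 bases before the start, and LGALS3BP held 1 match that began 58 bases before it. The single match of MX1 began 196 bases before the start.

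The median of the TGF-β pathway's own genes was close to that of all genes. The 20 tested genes were ligands, receptors, SMADs and the latent TGF-β binding proteins LTBP1, LTBP2, LTBP3 and LTBP4. Of these, 2 were higher in every passage and 5 were lower (10.0% and 25%, against 17.8% and 14.4% of all genes). Their median log2 fold change was -0.03. Among ligands, TGFB1 had 79.8, 74.3 and 50.2 CPM at 48 h and 64.9, 69.2 and 79.5 CPM at 72 h, lower in passages 12 and 13 and higher in passage 8. TGFB2 had 6.28, 4.25 and 6.91 CPM and then 5.10, 0.897 and 4.26 CPM. Of the receptors, TGFBR1, the type I receptor, had 256, 238 and 287 CPM and then 220, 219 and 201 CPM, without overlap (-0.29 ± 0.17, adjusted p = 0.662, edgeR). TGFBR2, the type II receptor, had 52.2, 89.7 and 70.2 CPM and then 97.7, 63.2 and 70.4 CPM and kept no single sign. BMPR2, the type II receptor for bone morphogenetic proteins, had 131, 116 and 136 CPM and then 86.1, 89.2 and 112 CPM (-0.42 ± 0.15). SMAD3, a signal carrier of the pathway, had 51.1, 30.2 and 31.9 CPM and then 31.7, 29.4 and 26.4 CPM.

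Of 26 feedback and target genes of TGF-β, none was higher in every passage and 7 were lower (26.9%, against 14.4% of all genes), with a median of -0.06. The 7 were SMAD7, PMEPA1, TGFBI, CTGF, BHLHE40, PTHLH and NEDD9. SMAD7, the inhibitory SMAD of the feedback loop, had 180, 164 and 153 CPM at 48 h and 165, 145 and 120 CPM at 72 h. Its controls stood at 87.1, 76.2 and 66.5 CPM, below every treated library. PMEPA1, a membrane protein that restrains SMAD signalling, had 791, 600 and 583 CPM and then 598, 530 and 353 CPM, against 174, 196 and 183 CPM in controls.

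Markers of epithelial-mesenchymal transition did not share 1 direction. Vimentin, VIM, had 180, 445 and 276 CPM at 48 h and 456, 477 and 201 CPM at 72 h, and fibronectin, FN1, had 51.6, 58.8 and 287 CPM and then 96.2, 62.1 and 230 CPM. Both were higher in passages 12 and 13 and lower in passage 8. E-cadherin, CDH1, had 383, 448 and 355 CPM and then 354, 337 and 388 CPM. N-cadherin, CDH2, had 15.5, 11.6 and 15.8 CPM and then 15.0, 8.80 and 6.56 CPM, lower in each passage. The transcription factor gene SNAI2 had 300, 293 and 354 CPM and then 275, 235 and 293 CPM. Of 18 mesenchymal markers 3 were higher in every passage and 3 were lower, and of 18 epithelial identity genes 3 were higher and 4 were lower. These counts were near the shares over all genes, 17.8% higher and 14.4% lower. Those higher included the epithelial factor EHF, with 14.4, 13.9 and 15.5 CPM and then 17.7, 22.4 and 31.0 CPM, and the membrane protease PRSS8, with 7.17, 8.51 and 8.11 CPM and then 11, 13.9 and 17.1 CPM. The groups did not overlap for EHF or for PRSS8.

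Basal keratinocyte and hemidesmosome genes were lower in every passage in 8 of 16 members and higher in 2 (50.0% and 12.5%, against 14.4% and 17.8% of all genes). The 8 were the keratins KRT5, KRT14, KRT17 and KRT6A, the integrin chains ITGA6 and ITGB4, DST and COL7A1, and the 2 were LAMA3 and LAMB3, chains of laminin-332. KRT5, the type II keratin of basal cells, had 9799, 8244 and 10359 CPM at 48 h and 7166, 3315 and 5550 CPM at 72 h, without overlap (-0.89 ± 0.27, adjusted p = 0.502, edgeR). KRT6A, a keratin of activated keratinocytes, had 2566, 2364 and 1526 CPM and then 1968, 1148 and 1119 CPM. The members' median was -0.28, -0.12 and -0.22 in passages 12, 13 and 8. GJA1, the gap junction protein connexin 43, had 125, 114 and 97.5 CPM and then 91.3, 90.7 and 56.1 CPM. Among 26 junction genes 8 were lower in every passage and 3 were higher (30.8% and 11.5%, against the same shares). The junction genes' median was -0.23, -0.11 and 0.10 in passages 12, 13 and 8, with 16 of 26 higher in passage 8.

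Matrix genes gave both signs, with 5 of 26 higher in every passage and 3 lower (19.2% and 11.5%, against 17.8% and 14.4% of all genes). IGFBP7, a secreted binding protein of insulin-like growth factors, had 30.6, 17.2 and 29 CPM at 48 h and 47.3, 32.8 and 53.8 CPM at 72 h (0.82 ± 0.16, adjusted p = 0.355, edgeR), without overlap. COL12A1, a fibril-associated collagen, had 604, 545 and 371 CPM and then 413, 295 and 154 CPM. Among 33 proteases and inhibitors, 7 were higher and 4 were lower (21.2% and 12.1%). SERPINE2, an inhibitor of thrombin and urokinase, had 634, 499.9 and 360 CPM and then 914, 1128 and 700.4 CPM, without overlap, against 89.8, 72.6 and 82.6 CPM in controls.

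Signalling through the EGF receptor and ERK was represented by ligands and feedback inhibitors. EREG, which encodes the EGF receptor ligand epiregulin, had 73.3, 82.2 and 263 CPM at 48 h and 189, 146 and 969 CPM at 72 h (1.36 ± 0.23, adjusted p = 0.349, edgeR). Passage 8 was far above the others at each time. EREG's list, the EGF receptor family and ligands, had 2 of 13 tested genes higher in every passage and 1 lower. These shares, 15.4% and 7.69%, did not exceed the 17.8% and 14.4% of all genes, and the list's median was -0.05. Of 18 tested ERK output and feedback genes, 6 were higher in every passage and none was lower (33.3% and 0%, against 17.8% and 14.4% of all genes). Their median log2 fold change was -0.05, and by passage the median was 0.33, 0.29 and -0.42 in passages 12, 13 and 8, with 11 of 18 lower in passage 8. The 6 were DUSP1, DUSP5, SPRY2, SPRED3, EPHA2 and IER3. DUSP1, a phosphatase of MAP kinases, had 29.1, 14.0 and 39.1 CPM and then 33.9, 30.8 and 97.2 CPM. SPRY2, an inhibitor of receptor tyrosine kinase signalling, had 28.7, 36.2 and 41.5 CPM and then 41.0, 46.8 and 73.3 CPM. Notch genes had 4 of 16 members lower and none higher, and YAP and TAZ target genes had 7 of 24 lower and 1 higher (25% and 29.2% lower, against 14.4% of all genes).

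HERPUD1, a component of protein degradation at the endoplasmic reticulum, had 82.7, 105 and 65.1 CPM at 48 h and 127, 357 and 119 CPM at 72 h, without overlap (1.08 ± 0.24, adjusted p = 0.392, edgeR). Of the 20 genes of its list, the unfolded protein response, 4 were higher in every passage and none was lower (20% and 0%, against 17.8% and 14.4% of all genes). The share of higher genes was near the background, and in passage 13 the list's median was -0.15 with 12 of 20 lower. Lysosome and autophagy genes were higher in 11 of 35 and lower in none (31.4% and 0%, against the same 17.8% and 14.4%), with medians of -0.06, 0.23 and 0.43 in passages 12, 13 and 8. CTSA, a lysosomal carboxypeptidase, had 49.1, 37.3 and 44.7 CPM and then 53.4, 51.4 and 75.6 CPM. Without passage 8, 12 members were higher and 2 were lower in both remaining passages (34.3% and 5.71%, against 26% and 24.9% of all genes).

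The list of metallothioneins, small proteins that bind zinc and copper, also held the zinc transporter gene SLC30A1. Of its 5 tested genes, 3 were higher in all 3 passages and none was lower (60% and 0%, against 17.8% and 14.4% of all genes). MT2A had 88.4, 192 and 140 CPM at 48 h and 229, 263 and 202 CPM at 72 h, without overlap (0.78 ± 0.21, adjusted p = 0.480, edgeR). Among lipid genes, 6 of 36 in cholesterol and fatty acid synthesis were higher and 4 were lower (16.7% and 11.1%). ACSS2, which makes acetyl-CoA from acetate, had 88.6, 141 and 234 CPM and then 115, 194 and 442 CPM. HMGCS1, an early enzyme of cholesterol synthesis, had 159, 227 and 363 CPM and then 154, 118 and 159 CPM. PFKFB4, a regulator of glycolysis, had 48.3, 30.3 and 42.9 CPM and then 26.4, 18.8 and 26.3 CPM, without overlap. Its list, hypoxia and glycolysis, had 5 of 36 higher and 6 lower, near the background.

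Proliferation genes had opposite signs in different passages. All 44 S phase and DNA replication genes were higher at 72 h in passage 12, and all 44 were lower in passages 13 and 8, with medians of 0.67, -0.70 and -1.57. No member kept 1 sign, and the fitted median of -0.54 averages over these. Of 39 genes of G2 and mitosis, 35 were higher in passage 12, none in passage 13 and 1 in passage 8, with medians of 0.28, -0.86 and -2.36. Replication-dependent histone genes, whose messages accumulate in S phase, had medians of 0.89, -0.61 and -2.46 over 55 genes. Histone messages mostly lack poly(A) tails and their genes are similar, so their counts depend on the library method.

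MKI67, the Ki-67 proliferation marker, had 125, 209 and 161 CPM at 48 h and 142, 58.3 and 25.9 CPM at 72 h in passages 12, 13 and 8. Its controls stood at 546, 528 and 420 CPM, above every treated library. E2F8, a transcription factor of S phase, had 4.80, 7.61 and 4.90 CPM and then 5.88, 2.63 and 1.12 CPM. CENPF, a kinetochore protein, had 168, 198 and 267 CPM and then 165, 95.0 and 50.7 CPM. For each of these genes the lowest library was that of 72 h in passage 8, and the 72 h library of passage 12 lay near its 48 h partner.

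Integrated stress response and amino acid genes formed another opposed group. Of 38 tested members, 34 were lower at 72 h in passage 12 and 37 were higher in passage 13, while passage 8 had 20 higher and 18 lower. The medians were -0.51, 1.32 and 0.10. PSAT1, an enzyme of serine synthesis, had 191, 54.2 and 37.3 CPM at 48 h and 78.5, 444 and 29.3 CPM at 72 h. ASNS, asparagine synthetase, had 120, 51.8 and 20.6 CPM and then 52.4, 271 and 13.0 CPM. Both were chosen after their values were seen. STC2, a secreted glycoprotein named after its values were seen, was the single member higher in every passage (8.16, 5.33 and 2.57 CPM, then 8.49, 41.9 and 6.15 CPM).

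**Figure D4:**
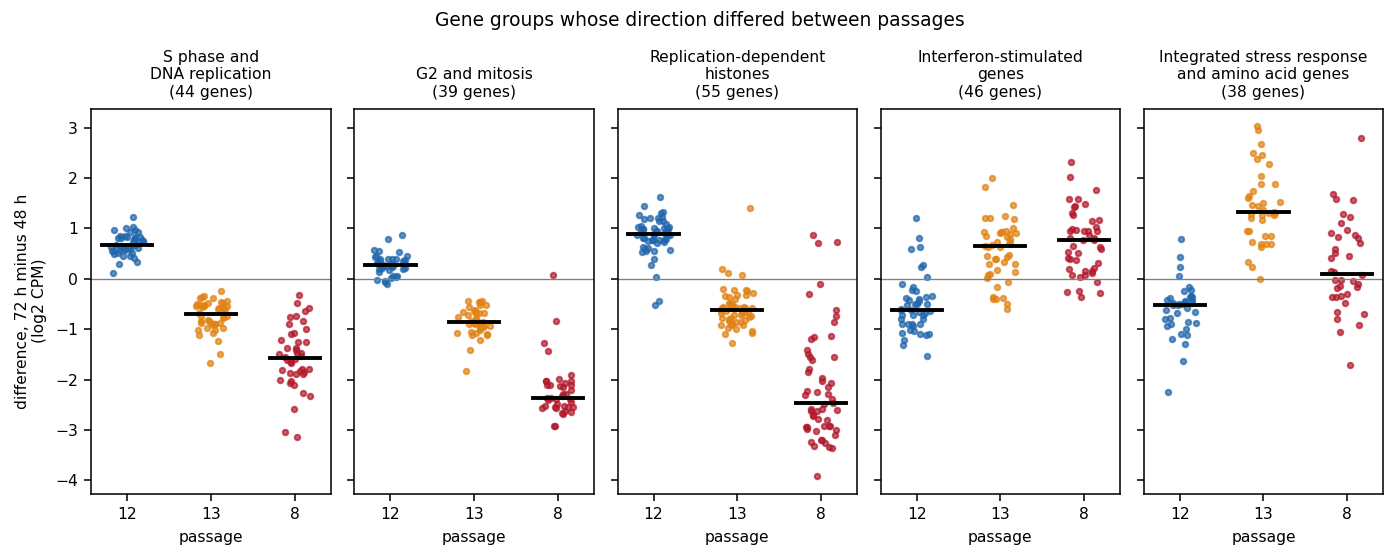
Paired difference in log2 CPM (72 h minus 48 h) of each tested gene in 5 lists, by passage, with a black line at the median. S phase, mitosis and histone genes lie mostly above 0 in passage 12 and below 0 in passages 13 and 8, interferon-stimulated genes show the reverse, and integrated stress response genes are highest in passage 13 (median 1.32).

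Cytosolic ribosomal protein genes were lower in every passage in 32 of 83 members and higher in 3 (38.6% and 3.61%, against 14.4% and 17.8% of all genes), but their median was -0.32, 0.03 and -0.66 in passages 12, 13 and 8. RPS24 had 300.5, 269 and 280 CPM at 48 h and 222, 219 and 130 CPM at 72 h, without overlap. RPS12 had 236, 190 and 163 CPM and then 163, 159 and 90.2 CPM. Ribosomal protein genes have many processed copies in the genome and may lose reads to them. The 72 h library of passage 8, with the least ribosomal protein counts, also had the most of MALAT1, with 14948 CPM against 4096 to 5110 CPM in the other 5, and of NEAT1, with 4282 CPM against 688 to 2215 CPM. Whether this bears on the gene groups above was not tested. Without passage 8, 33 of the 83 were lower and 6 were higher in both remaining passages (39.8% and 7.23%, against 24.9% and 26% of all genes). Nuclear genes of oxidative phosphorylation were lower in 17 of 78 and higher in 3 (21.8% and 3.85%), with a median of -0.09.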

How the data were processed

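Total RNA of 6 libraries, 3 after 48 h and 3 after 72 h of TGF-β1, was compared. For each gene the authors deposited the raw read count, without normalization. RNA came from RNeasy columns and went into NEBNext Ultra RNA libraries, per the labels' protocols. The submitters' processing notes name build hg38 and the tools featureCounts 1.5.0-p1 and STAR 2.5.2a, besides bcl2fastq 2.17.1.14 and FastQC 0.11.5. Not given in the sources used here are the strand setting, the annotation release and how multi-mapped reads were handled. Overlapping, antisense and near-identical genes may therefore share or lose reads. Symbols came from GENCODE release 29 (57895 of 58233 identifiers).

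Genes were tested with edgeR 4.0.16 in R 4.3.3: TMM scaling, filterByExpr, passage as a block, robust quasi-likelihood F test with 2 residual degrees of freedom, and Benjamini-Hochberg adjustment at 0.05. CPM uses TMM-scaled library sizes, paired log2 differences use a prior count of 2, and SE is approximate, the absolute log2 fold change divided by the root of F. On data simulated from these libraries the test recovered 1.49%, 38.8% and 90.9% of genes changed 1.5-fold, 2-fold and 4-fold. There were 5 false calls among 14687 unchanged genes. The simulation drew each gene independently and gave a changed gene the same fold in every passage. The real libraries held groups of genes that moved together in opposite directions between passages, so these rates may not hold for them. In lists, a gene counts as higher or lower when its paired difference has that sign in all 3 passages, and no list was tested. With 3 against 3 values an exact two-sided permutation test cannot go below 0.10, so none was run.

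The pairing comes from the labels, in which a replicate number stands for 1 passage. As a check, the 2 libraries of a passage had deviations from their group means that correlated at -0.03, 0.51 and 0.51 in passages 12, 13 and 8. The 72 h library of passage 12 correlated at 0.31 with the 48 h library of passage 13, so these values do not bear out the passage 12 pair, which rests on the labels. No 2 libraries of the same time were copies, since chi-square over its degrees of freedom was 36.6 to 164 within groups. Pairs of a 48 h and a 72 h library were not checked in this way. Members and gene lists were chosen with earlier results of these data known. Named genes were up to 12 per direction with the largest smallest paired difference and a mean of at least 5 CPM in the higher group, which a single library can supply, the 2 of smallest p per list, and a set of pathway genes. Others are marked as chosen after their values were seen. Genes given by name alone are members of a count. A few genes and list members are not reported here. Alternatives were DESeq2 1.42.0, other scalings and filters, no replicate block, all 9 libraries, and omission of each passage. The count of list members without passage 8 was chosen after seeing the data.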

Additional observations from a re-analysis of the deposited data

Results flagged for a closer look

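Gene groups whose medians lay at or beyond 0.5 on the log2 scale in both directions in different passages are given here. With 1 pair per passage, the difference between passages was not tested. The median paired difference (72 h minus 48 h) of S phase and DNA replication genes was 0.67 in passage 12, -0.70 in passage 13 and -1.57 in passage 8. For replication-dependent histones it was 0.89, -0.61 and -2.46. Interferon-stimulated genes had -0.61, 0.65 and 0.77. Integrated stress response and amino acid genes had -0.51, 1.32 and 0.10.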

How the results depend on the processing

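No gene passed at an adjusted p under 0.05 in edgeR with passage as a block, without the replicate block, with all 9 libraries, with other scalings, or with a filter of 1 CPM. The exceptions were no filter on low counts, with 302 genes (207 higher, 95 lower), and DESeq2, with 59. Leaving out each replicate number in turn gave 0 to 1, the 1 being PRSS35 without replicate 1 (passage 12), named after its value was seen. The cause was not tested. Genes at an unadjusted p under 0.05 numbered 1250, against 760 without the replicate block, 2283 without a filter and 770 to 1785 with 1 replicate number left out (770 without replicate 2). Of 89 tested genes named with values, 27 passed in DESeq2, against 59 of all 14887 genes. Without a filter 47 passed, against 302 of 35280, and 80 kept their sign in every setting. Many of the 89 were named for a small p or a shared sign in these same libraries, so high counts follow from that choice. NEAT1, at -0.01, turned to 0.35 without the replicate block, 0.15 and 0.38 with all 9 libraries with and without it, and 0.016 without a filter. FN1 turned from 0.21 to -0.034 without the block and -0.0075 with all 9 libraries and no block. Leave-one-out ranges that crossed 0 are given next. They were MALAT1 -0.11 to 0.74, NEAT1 -0.68 to 0.60, TGFB1 -0.20 to 0.28, TGFBR2 -0.26 to 0.45, VIM -0.18 to 0.72, CDH1 -0.27 to 0.0074, FN1 -0.13 to 0.49, PSAT1 -0.82 to 1.38 and ASNS -0.94 to 0.93. Over passages 12 and 13 alone (without replicate 3), 4 antigen presentation and 2 lysosome genes were lower, against 0 in all 3. Likewise 6 ribosomal protein genes were higher against 3, 4 histone genes higher against 1 and 2 lower against 1, 8 interferon-stimulated genes lower against 3, and 3 integrated stress response genes higher against 1. Changes of 2-fold or less were often missed at this size in the simulations.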

Other observations

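Groups outside the programmes above also held genes with the same sign in every passage, given here as values. The genes named are among the 2 of smallest p in each list. Of 45 splicing factors, 10 were lower at 72 h in all 3 passages and 1 was higher (22.2% and 2.22%, against 14.4% and 17.8% of all genes). HNRNPA3, an RNA-binding protein, had 45.8, 52.0 and 48.8 CPM at 48 h and 33.5, 35.9 and 33.0 CPM at 72 h in passages 12, 13 and 8, without overlap. WNT4, a secreted WNT ligand, had 13.5, 4.73 and 10.0 CPM and then 4.55, 1.79 and 7.16 CPM, while the WNT receptor gene FZD2 had 57.8, 48.2 and 90.2 CPM and then 101, 56.7 and 136 CPM. FABP4, a fatty acid carrier, had 9.59, 2.70 and 2.89 CPM and then 2.77, 1.51 and 0.591 CPM. ABCG1, a cholesterol exporter, had 52.8, 44.6 and 7.63 CPM and then 72.3, 70.9 and 14.7 CPM. TNFAIP2, a gene induced by tumour necrosis factor, had 7.76, 9.28 and 9.0 CPM and then 12.3, 15.0 and 23.5 CPM. In the WNT list 3 of 24 genes were higher in every passage and 5 lower (12.5% and 20.8%). Cholesterol efflux and lipid storage, the list of FABP4 and ABCG1, had 5 of 16 higher and 3 lower (31.3% and 18.8%). The cytokine list of TNFAIP2 had 4 of 24 higher and 6 lower (16.7% and 25%). The clock output gene DBP differed by passage, with 5.74, 1.98 and 4.66 CPM and then 5.38, 5.60 and 20.2 CPM.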
